A study of Mus musculus with 8 samples.

Results

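The laminin chains described here are the mRNAs of *Lama1*, *Lama3*, *Lama4*, *Lama5*, *Lamb1*, *Lamb2*, *Lamb3* and *Lamc1*, 8 of the 24052 gene symbols counted in each library. They were chosen by gene symbol as members of 1 protein family, with earlier results on these libraries known. The number of chains that differed is therefore a description and not independent evidence about the family. Counts are also given for 2 further laminin chains, *Lama2* and *Lamc3*. The libraries came from a murine medullary thymic epithelial cell (mTEC) line, mTEC 3.10, called WT, and from E6, a single clone of that line edited in *Aire* exon 3 by Crispr-Cas9. The labels give the genotype of E6 as *Aire* +/-, and the methods of the study describe mutations of both alleles. Because E6 is 1 clone, the mutation and any other difference between that clone and the WT line cannot be told apart. Each cell type was sequenced before and after thymocyte adhesion, a co-culture of 12 h at 50 thymocytes from C57BL/6 mice per mTEC, with 2 libraries per condition and 8 in all, at passage 2. Culture time was 24 h in replicate 2 of WT after adhesion and in replicate 1 of E6 before and of E6 after adhesion, and 12 h in the other libraries. For E6 before adhesion, the protocol field speaks of co-culture although the titles do not, and the titles were followed. The labels do not say that replicates came from separate cultures, so p-values measure only the spread between these libraries.

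Laminins are large secreted glycoproteins of the basement membrane, each built from one α, one β and one γ chain joined in a coiled coil. The trimers are named by the numbers of their chains. The laminin that holds α3 and β3 anchors epithelial cells to the basement membrane through hemidesmosomes, laminin-511 (α5β1γ1) and laminin-521 (α5β2γ1) are general epithelial and vascular laminins, and laminin-111 (α1β1γ1) is abundant in the embryo. Laminins are made by thymic epithelial cells and are ligands of integrins on developing thymocytes.

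The promoters of the 3 β chains and of *Lama5* are printed because 1 of the 3 β genes passed the test between the cell types and the other two did not. The windows run from 250 bases before to 50 bases after a RefSeq transcription start on build GRCm38.p6. Sequences are 5′ to 3′ on the strand of the gene, and capitals mark a GC box (GGGCGG on either strand), the binding sequence of Sp-family factors.
Lamb1 promoter, chr12:31265043-31265342, plus strand: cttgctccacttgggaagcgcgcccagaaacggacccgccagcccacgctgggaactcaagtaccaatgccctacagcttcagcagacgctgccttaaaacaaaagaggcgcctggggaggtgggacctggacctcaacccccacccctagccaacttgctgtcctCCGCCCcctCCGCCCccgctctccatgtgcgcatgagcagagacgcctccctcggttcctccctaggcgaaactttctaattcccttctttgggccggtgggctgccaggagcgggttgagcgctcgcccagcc
Lamb2 promoter, chr9:108479612-108479911, plus strand: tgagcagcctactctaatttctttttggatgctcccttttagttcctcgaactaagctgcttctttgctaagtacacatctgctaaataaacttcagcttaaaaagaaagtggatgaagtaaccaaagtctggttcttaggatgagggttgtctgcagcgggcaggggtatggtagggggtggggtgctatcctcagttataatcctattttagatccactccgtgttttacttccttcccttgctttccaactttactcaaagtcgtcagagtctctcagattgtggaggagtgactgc
Lamb3 promoter, chr1:193301744-193302043, plus strand: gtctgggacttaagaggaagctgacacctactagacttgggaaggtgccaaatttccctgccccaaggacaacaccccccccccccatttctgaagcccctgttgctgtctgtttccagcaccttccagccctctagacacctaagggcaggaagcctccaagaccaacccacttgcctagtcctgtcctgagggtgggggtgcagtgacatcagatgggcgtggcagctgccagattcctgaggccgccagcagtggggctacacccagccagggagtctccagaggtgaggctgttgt
Lama5 promoter, chr2:180225810-180226109, minus strand: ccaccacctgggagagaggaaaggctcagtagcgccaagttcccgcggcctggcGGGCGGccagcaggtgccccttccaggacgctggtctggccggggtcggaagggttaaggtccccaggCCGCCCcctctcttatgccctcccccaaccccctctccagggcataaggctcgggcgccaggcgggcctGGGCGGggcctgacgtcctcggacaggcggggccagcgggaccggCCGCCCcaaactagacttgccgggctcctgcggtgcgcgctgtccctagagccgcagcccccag
The *Lamb1* window held a GC box at -84 and another at -75 from the start, both on the opposite strand. The *Lama5* window held 4, at -196, -128, -59 and -14, and those of *Lamb2* and *Lamb3* held none. A GC box occurred in 35.7% of the 32851 promoter windows in the table. None of these 4 windows held the AP-1 site (TGANTCA, in 7.81% of all windows), the E-box (CACGTG, 7.15%) or the TATA box (TATAAA, 13.6%), each searched on both strands, and no searched motifs overlapped. GC content was 63.7% for *Lamb1*, 44.0% for *Lamb2*, 59.3% for *Lamb3* and 72.7% for *Lama5*. The *Lamb3* window belongs to the first start that the table lists, which lies inside the longer GENCODE gene. A match is a description of the sequence, not a binding site.

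The libraries held 13506610 to 20145154 counts on genes, and 3 counts corresponded to 0.149 to 0.222 CPM, the counts scaled to the total of the library. In replicate 1 of WT after adhesion, the share of reads counted on genes was 66.7%, whereas it was 75.7% to 78.8% elsewhere. Counts in that library fell by 0.46 on the log2 scale per 10 points of GC content, where the slopes of the other libraries lay between -0.02 and 0.13. *Aire* had 0 counts in 6 libraries and 3 in replicate 2 of WT after and of E6 after adhesion, so it could not check the labels. The epithelial markers in the files summed to 4053 to 5953 CPM in every condition, led by keratin genes. By contrast, the 8 mTEC markers, which include *Aire* and *Fezf2*, stayed at or below 2.27 CPM in sum, and *Ccl21a* and *Ccl19* were at 0 in all libraries. The libraries thus carried epithelial mRNAs, while the listed mTEC markers were close to absent. The study describes this line as positive for EpCAM and low in CD80 or MHC-II. *Epcam*, counted here as epithelial, had 545 to 603 CPM. The 15 thymocyte markers in the files summed to 1.28 to 3.04 CPM before adhesion, to 20.4 to 29.7 CPM in WT after adhesion and to 132 to 161 CPM in E6 after adhesion, and all were above 0 in at least 1 library.

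Of the 8 chains, 6 passed the filter on low counts, and 2 of them, *Lama3* and *Lamb1*, were higher in E6 than in WT, averaged over before and after adhesion. The chains *Lama5*, *Lamb2*, *Lamb3* and *Lamc1* were not called, and none of the 6 was lower. A gene was called when its FDR was under 0.05 and its FC at least 1.5. By this rule 11.3% of the 11672 genes tested were called in either direction and 5.22% were higher in E6. Over the 6 chains tested the median log2 FC was 0.44, beside -0.01 over all genes tested. The middle values were *Lamb3* (0.41) and *Lamb2* (0.46). Without replicate 1 of WT after adhesion they were 0.22 and 0.29, and without replicate 2 they were 0.72 and 0.74. No laminin chain passed the test between before and after thymocyte adhesion in either cell type. Of all genes tested, 0% passed it in WT and 2.00% in E6.

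**Figure D1:**
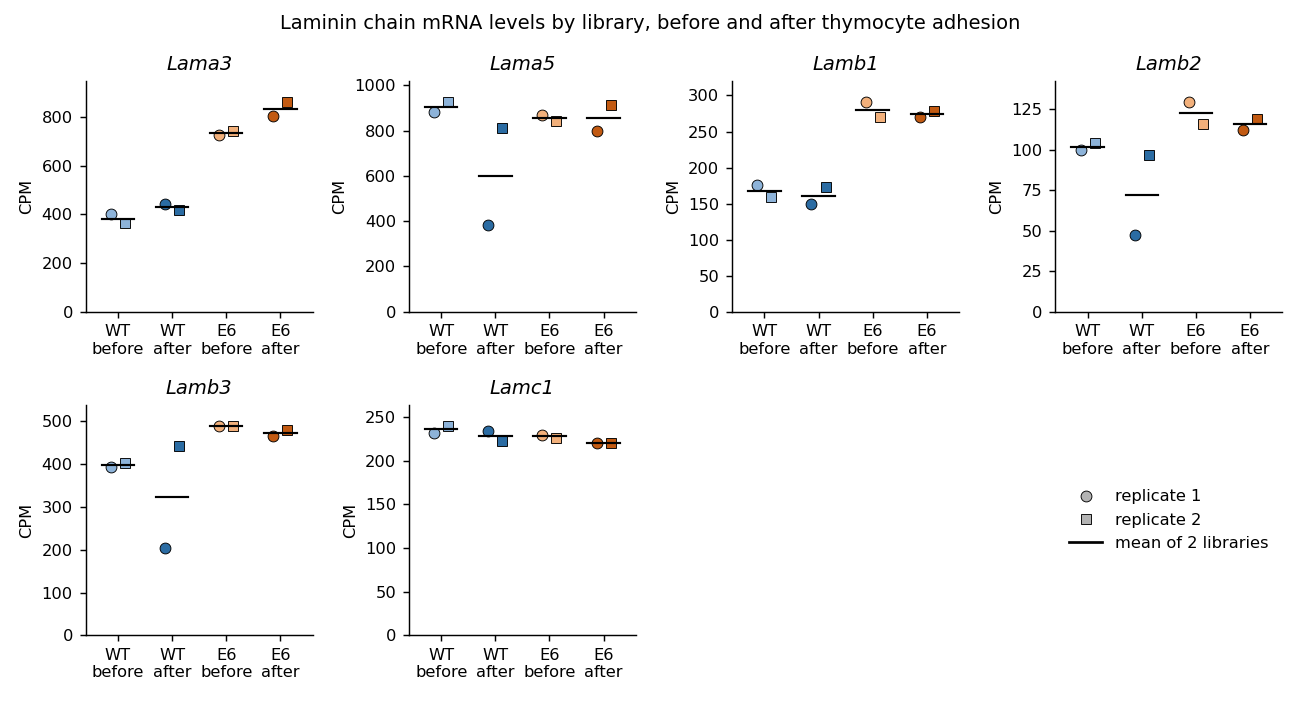
Levels (CPM, linear axis from 0) of the 6 measurable chains in each of the 8 libraries; circles are replicate 1, squares replicate 2, and bars the mean of 2 libraries. All 4 E6 libraries lie above all 4 WT libraries for *Lama3* and *Lamb1*, and replicate 1 of WT after adhesion lies far below the other WT libraries for *Lama5*, *Lamb2* and *Lamb3*.

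*Lama3* encodes α3, the α chain of the hemidesmosomal laminin and the part of it that integrins bind. The gene lies on the plus strand of chromosome 18 from 12333819 to 12583013 on GRCm38. Its level was 400 and 365 CPM in WT before adhesion and 444 and 417 CPM in WT after adhesion. In E6 it was 728 and 742 CPM before and 805 and 863 CPM after adhesion. The lowest E6 library was thus well above the highest WT library. The log2 FC was 0.92 ± 0.09 (SE, 4 libraries against 4), an FC of 1.89, with a 95% confidence interval from 0.71 to 1.13 on the log2 scale and an FDR of 0.00107 by edgeR's quasi-likelihood test. Before adhesion it was 0.96 (FDR 0.0107) and after adhesion 0.89 (FDR 0.0102) on the same scale. Within one culture time, the difference in log2 CPM between E6 and WT before adhesion was 0.98 at 12 h. This set 1 E6 library against the mean of both WT libraries before adhesion. After adhesion the difference was 0.83 at 12 h and 0.95 at 24 h, each from 1 library against 1.

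*Lama5* encodes α5, the α chain of laminin-511 and laminin-521, and is a minus-strand gene of chromosome 2, from 180176373 to 180225859. It had 883 and 926 CPM in WT before adhesion and 383 and 813 CPM in WT after adhesion. The E6 libraries had 869 and 841 CPM before and 797 and 914 CPM after adhesion. The 2 cell types overlapped, and only replicate 1 of WT after adhesion stood apart, at 43.9% of the mean of the other 3 WT libraries. The log2 FC of E6 against WT was 0.20, with an interval from -0.25 to 0.66 and an FDR of 0.495.

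*Lama1* and *Lama4* encode the α chains of laminin-111 and of laminin-411, the latter known from endothelial and mesenchymal cells. *Lama1* had 0 counts in all 8 libraries, which allows at most 0.149 to 0.222 CPM per library. *Lama4* had 2 counts in each E6 library after adhesion, or 0.12 CPM, and 0 counts in the other 6. These counts are below the floor of 3, so no FC is given. Among the 9 mesenchymal markers in the files, *Thy1* is also one of the thymocyte markers. In the same E6 libraries these markers summed to 12.2 to 16.6 CPM, against 1.22 to 5.92 CPM elsewhere, with *Lum* at 0 throughout. The 8 endothelial markers summed to 1.78 to 2.27 CPM there and to at most 0.397 CPM elsewhere, with *Tie1* at 0 in all 8. Their part in the *Lama4* counts was not tested. Of the chains outside the 8, *Lama2* had 0 counts in every library.

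*Lamb1* encodes β1, shared by laminin-111, laminin-411 and laminin-511, and lies on the plus strand of chromosome 12 from 31265234 to 31329644. Its level was 175 and 159 CPM in WT before and 150 and 173 CPM in WT after adhesion. In E6 the level was 291 and 270 CPM before and 270.4 and 279 CPM after adhesion. No WT library reached the E6 range. The log2 FC was 0.74 ± 0.08 (SE, 4 libraries against 4), an FC of 1.67, with an interval from 0.55 to 0.92 and an FDR of 0.00156 by edgeR's quasi-likelihood test. It was 0.76 before (FDR 0.0142) and 0.71 after adhesion (FDR 0.0136).

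*Lamb2* encodes β2, the alternative partner of α5 in laminin-521, and lies on the plus strand of chromosome 9 from 108479736 to 108490530. It had 99.6 and 104 CPM in WT before adhesion and 47.2 and 96.7 CPM in WT after adhesion. E6 had 129 and 116 CPM before and 112 and 119 CPM after adhesion. All E6 libraries lay above all WT libraries, yet the gap was narrow except against replicate 1 of WT after adhesion. The log2 FC of E6 against WT was 0.46, with an interval from 0.04 to 0.89, and the FDR of 0.115 missed the threshold. After a correction for GC content the value was 0.36, with an FDR of 0.0194 by the edgeR test but short of the FC limit.

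*Lamb3* encodes β3, the β chain of the same laminin as α3, and lies on the plus strand of chromosome 1 from 193207699 to 193343878. It had 393 and 402 CPM in WT before and 203 and 443 CPM in WT after adhesion. E6 had 490.2 and 489 CPM before and 466 and 480.3 CPM after adhesion. Here too the E6 libraries were above the WT libraries without overlap, by a margin that was small beside the gap between the WT libraries after adhesion. The log2 FC was 0.41, with an interval from -0.04 to 0.87 and an FDR of 0.179. In all, 4 of the 8 chains did not overlap between the cell types and were higher in E6, namely *Lama3*, *Lamb1*, *Lamb2* and *Lamb3*, where 16.7% of the genes tested showed this pattern.

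*Lamc1* encodes γ1, the γ chain of laminin-111, laminin-411, laminin-511 and laminin-521, and is a minus-strand gene of chromosome 1, from 153218922 to 153332786. Its level was 232 and 240 CPM in WT before adhesion, 234 and 222 CPM in WT after, 230 and 226 CPM in E6 before and 220 and 220.01 CPM in E6 after adhesion. This was the narrowest range of the 6 chains. The log2 FC was -0.07, with an interval from -0.26 to 0.11 and an FDR of 0.553, so that a difference as large as 1.5-fold lay outside the interval. *Lamc3*, which encodes γ3, had 3 to 10 counts per library and was not tested.

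**Figure D2:**
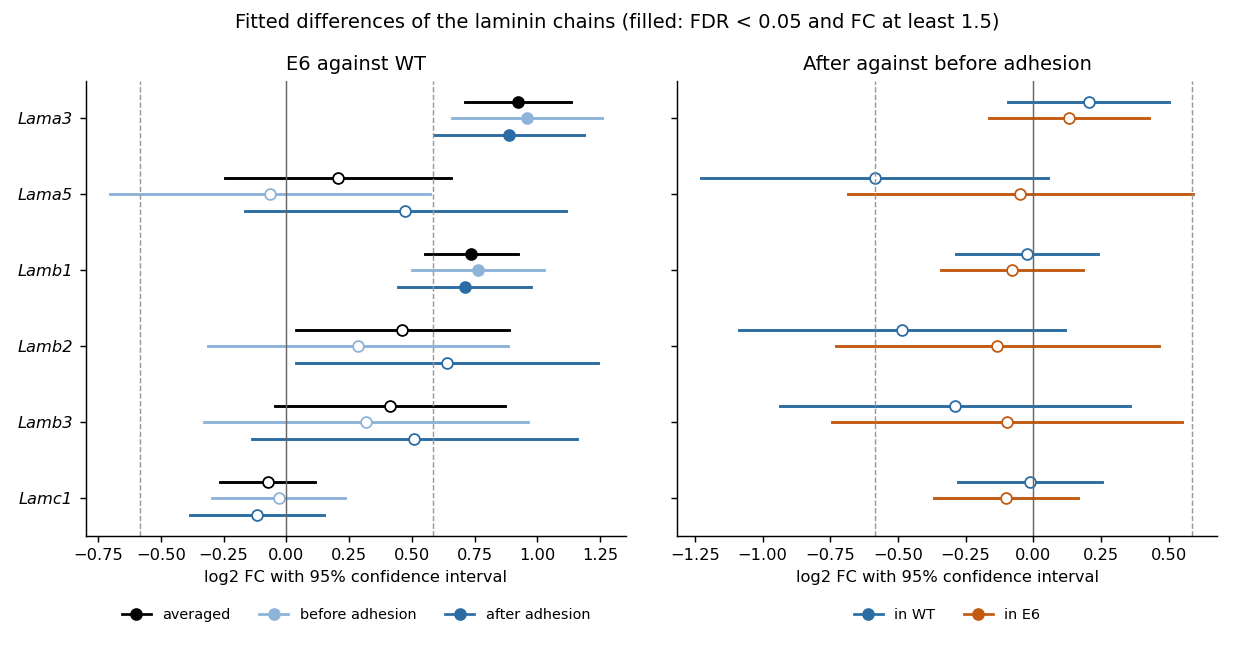
Log2 FC with 95% confidence intervals from the edgeR fit for E6 against WT (left) and for after against before adhesion (right); filled points passed FDR and FC limits, dashed lines mark an FC of 1.5. *Lama3* and *Lamb1* are filled in all 3 contrasts on the left (0.92 and 0.74 when averaged), and no point is filled on the right.

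Within each condition, the same 2 chains of the 8 were called, both higher in E6. Before adhesion, 5.01% of the genes tested were called and 2.45% were higher, and after adhesion 8.91% were called and 4.85% were higher. The averaged calls of *Lama3* and *Lamb1* held with each library left out in turn. Those within a condition rested on 2 libraries a side. Before adhesion neither was called without replicate 1 or replicate 2 of WT before or of E6 before adhesion, with log2 FC from 0.89 to 1.03 for *Lama3*, and *Lamb1* was not called without replicate 1 or replicate 2 of E6 after adhesion. Over all genes, 37 to 69 were called in the first 4 of these fits and 173 and 175 in the last pair, instead of 585. After adhesion no chain was called without replicate 1 or replicate 2 of E6 after adhesion, at 0.93 and 0.84 for *Lama3* (43 and 27 genes called in all, instead of 1040), or when only the 4 libraries compared were fitted, at 0.89 with an FDR of 0.143.

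The levels of different chains were compared per length, in RPKM, the CPM divided by the length of the union of exons in kilobases. In WT the order was *Lama5* at 66.0 ± 21.9, *Lamb3* at 54.5 ± 16.2, *Lama3* at 37.9 ± 3.07, *Lamc1* at 28.0 ± 0.905, *Lamb1* at 16.5 ± 1.22 and *Lamb2* at 14.3 ± 4.38 RPKM (SD, n = 4). The ranges of *Lama5*, *Lamb3* and *Lama3* over the WT libraries overlapped, as did those of *Lamb1* and *Lamb2*. Within each WT library *Lama5* was above *Lamb3*, and both were above *Lama3* except in replicate 1 of WT after adhesion. In E6 *Lama5*, *Lama3* and *Lamb3* led at 75.1 ± 4.30, 73.0 ± 5.76 and 72.8 ± 1.64 RPKM, *Lamb1* and *Lamc1* had 28.0 ± 0.988 and 27.1 ± 0.587 RPKM, and *Lamb2* had 19.6 ± 1.21 RPKM (SD, n = 4). The 3 leading chains overlapped, as did *Lamb1* and *Lamc1*. These orders hold for the union of exons. With the length of the longest transcript, the level of *Lamb1* was 28.4 ± 2.10 RPKM in WT and 48.0 ± 1.69 RPKM in E6 (SD, n = 4 each), and that of *Lamb3* was 41.8 to 91.0 RPKM in WT and 95.8 to 101 RPKM in E6. On that scale *Lamb3* lay above *Lama5* within each WT library, and *Lamb1* overlapped *Lamc1* in WT and lay above *Lamb2*. In E6 *Lamb3* lay above *Lama5* and *Lama3*, and *Lamb1* above *Lamc1*, without overlap. The ratio of *Lama3* to *Lama5* in RPKM was 0.481 and 0.418 in WT before, 1.23 and 0.544 in WT after, 0.889 and 0.935 in E6 before and 1.07 and 1.0004 in E6 after adhesion. Without replicate 1 of WT after adhesion, where *Lama5* was low, the E6 ratios were all above those of WT.

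Within the α class *Lama5* and *Lama3* made up the whole measurable sum. *Lama5* took 67.6% ± 2.87 of the α sum in WT without replicate 1 of WT after adhesion (SD, n = 3), 61.9% ± 11.6 with it (SD, n = 4) and 50.7% ± 2.02 in E6 (SD, n = 4). Within the β class the leading chain was *Lamb3*, at 63.1% ± 4.06 in WT and 60.5% ± 0.848 in E6 (SD, n = 4 each), a difference within the spread of WT. Without replicate 1 of WT after adhesion, *Lamb3* took 63.5% to 66.8% in WT, above the E6 range of 59.4% to 61.5%. *Lamb1* took 17.0% to 28.1% of the β sum in WT, 17.0% to 18.9% without that library, and 22.7% to 23.5% in E6. These shares are descriptions and depend on the length assigned to each gene.

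**Figure D3:**
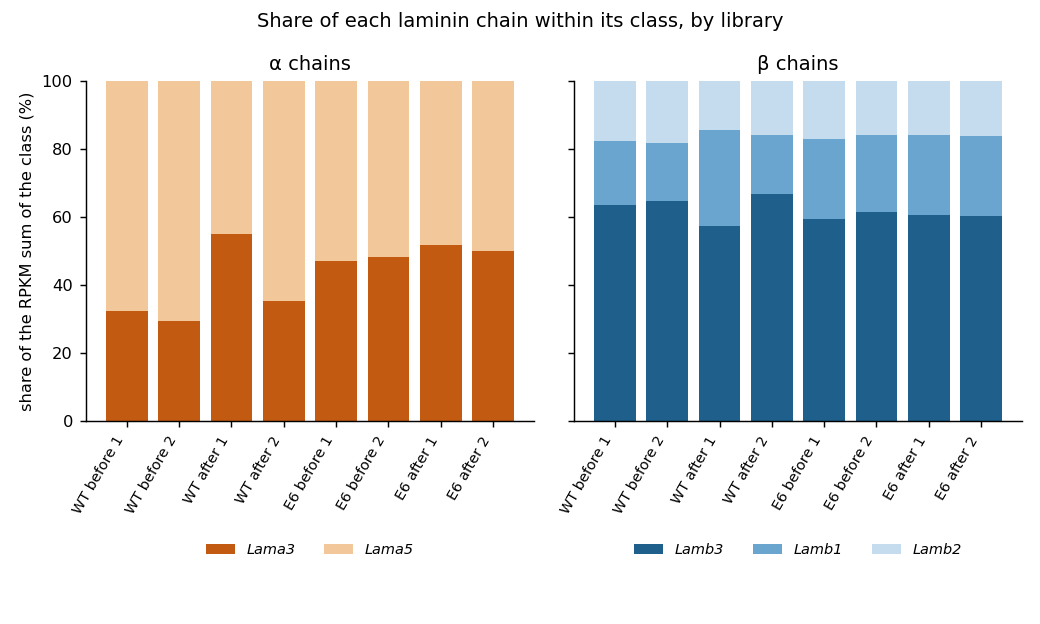
Share of each chain in the RPKM sum of its class (percent, stacked to 100) for the α and β chains in the 8 libraries. *Lama3* holds 47.0% to 51.7% of the α sum in E6 and 29.5% to 35.2% in WT except for replicate 1 of WT after adhesion, at 55.1%, and *Lamb3* leads the β sum in all 8 libraries.

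Between α3 and β3 of the hemidesmosomal laminin, *Lama3* had the lower mRNA level per union of exons in 3 WT and 2 E6 libraries, and *Lamb3* in replicate 1 of WT after adhesion and in the 2 E6 libraries after adhesion. With the longest transcript *Lama3* was the lower in all 4 E6 libraries, and WT was the same. Read as trimers, of the 3 mRNAs of laminin-511 *Lamb1* was the lowest in all 4 WT libraries, at 15.1 to 17.7 RPKM. In E6 *Lamc1* was the lowest in 3 libraries, at 26.6 to 27.8 RPKM, and *Lamb1* in 1, at 27.2 RPKM. With the longest transcript *Lamb1* was the lowest in 3 WT libraries and *Lamc1* in 1, replicate 2 after adhesion, and *Lamc1* was the lowest in all 4 E6 libraries. For laminin-521 the lowest chain was *Lamb2* in every library by both lengths, at 7.75 to 17.1 RPKM in WT and 18.5 to 21.3 RPKM in E6. These are mRNA levels, and protein and assembly were not measured here.

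After against before adhesion, 0 of the 6 chains were called in WT, 0 in E6 and 0 when both were averaged. Over all genes tested the share called was 0% in WT, 2.00% in E6 and 1.89% averaged. In WT edgeR called no gene at all, with 873 genes at an unadjusted p under 0.05, and DESeq2 called 64. This count rested on the WT libraries after adhesion, with 207 genes called in edgeR without replicate 1 and 3550 without replicate 2. *Lama3* had a log2 FC of 0.20 in WT (interval -0.09 to 0.50) and 0.13 in E6 (interval -0.16 to 0.43). *Lamb1* had -0.02 in WT and -0.08 in E6, and *Lamc1* had -0.01 and -0.10, with all 4 intervals inside the 1.5-fold limits. A change as large as that in these 2 chains was therefore outside the intervals, while for *Lama5*, *Lamb2* and *Lamb3* the intervals in WT reached -1.23, -1.09 and -0.93. Thymocyte markers rose across the same contrast (11 of the 12 tested, averaged), and their part in the chain values was not tested. In bulk libraries, fewer cells of a type and less RNA per cell cannot be told apart.

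The difference between the adhesion effects of E6 and WT was called for none of the 6 chains, nor for any of the genes tested (0%, 297 genes at an unadjusted p under 0.05 in edgeR, and 3 genes called by DESeq2). Over all genes, edgeR called 145 without replicate 1 of WT after adhesion and 3049 without replicate 2. The values were 0.54 for *Lama5*, 0.35 for *Lamb2* and 0.19 for *Lamb3*, with FDRs of 0.988, 0.988 and 0.989, and between -0.09 and -0.05 for *Lama3*, *Lamb1* and *Lamc1*.

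These 3 chains depended on which of the WT libraries after adhesion was used. Replicate 1 of WT after adhesion had 43.9% of the mean of the other WT libraries for *Lama5*, 47.1% for *Lamb2* and 49.3% for *Lamb3*, but 113% for *Lama3*, 88.5% for *Lamb1* and 101% for *Lamc1*. The exons of the 3 low chains are richer in GC, at 59.9%, 58.8% and 55.6%, than those of the other 3, at 51.7% to 53.0%. Among all tested genes with 58 to 60% GC the median of that library was -0.55 on the log2 scale against the other WT libraries, where *Lama5* had -1.08 and *Lamb2* -0.98. Among genes with 54 to 56% GC the median was -0.36, where *Lamb3* had -0.91. The part of GC content in these values was examined by a correction per library, after which the log2 FC of adhesion in WT was -0.49 for *Lama5*, -0.38 for *Lamb2* and -0.20 for *Lamb3*. Before the correction the values were -0.59, -0.49 and -0.29. None was called with or without it.

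**Figure D4:**
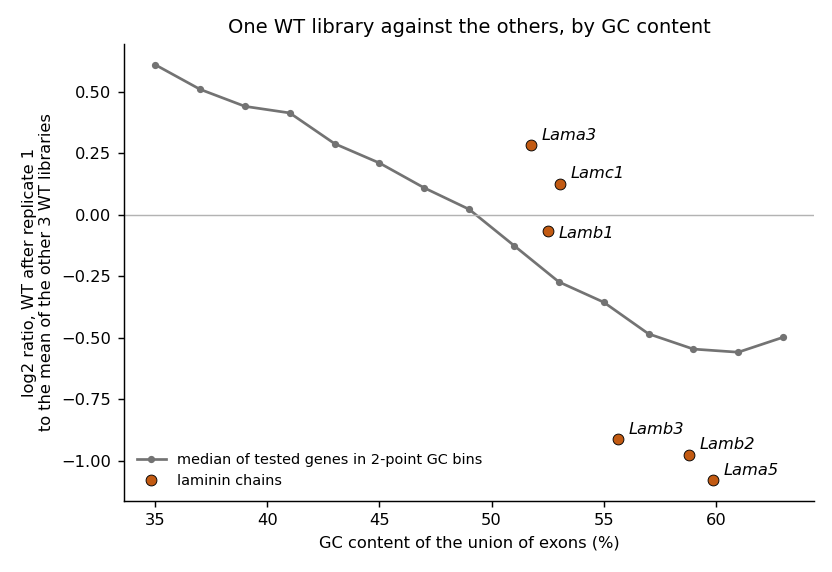
Log2 ratio of replicate 1 of WT after adhesion to the mean of the other 3 WT libraries, against GC content of the exons (percent), for the laminin chains (points) and as the median of tested genes in bins of 2 percentage points (line, bins of at least 20 genes). *Lama5*, *Lamb2* and *Lamb3* lie at -1.08, -0.98 and -0.91, below the line, and the other chains lie between -0.07 and 0.28, above it.

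Without replicate 2 of WT after adhesion, replicate 1 was alone in its condition and was assumed to vary like the other conditions. Replicate 1 also stood apart in GC slope (-0.46) and reads on genes (66.7%), so adhesion cannot be told from the state of that library. In that fit the log2 FC of after against before adhesion in WT was -1.15 for *Lama5*, -1.02 for *Lamb2* and -0.88 for *Lamb3*. All 3 were called, where 29.8% of all genes tested were. The difference of the adhesion effects was then 1.12, 0.90 and 0.80 and was called for the same 3 chains, where 25.6% of all genes were, and E6 against WT averaged added *Lamb2* (0.74) and *Lamb3* (0.72) to the calls, where 21.4% of all genes were called. *Lama5* was also called in the averaged adhesion contrast (-0.60, with 11.2% of all genes), and after adhesion E6 against WT called *Lama5* (1.05), *Lamb2* (1.19) and *Lamb3* (1.12), with 37.7% of all genes. Without replicate 1 instead, all of these values were below the FC limit. Adhesion in WT was at -0.19, -0.11 and 0.12 and E6 against WT averaged at 0.02, 0.29 and 0.22 for *Lama5*, *Lamb2* and *Lamb3*. Over all genes that fit called 1.74% for adhesion in WT, 1.22% for the difference of the adhesion effects, 4.23% for averaged adhesion, 13.2% for E6 against WT averaged and 15.6% after adhesion.

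Genes that act with laminins were taken from lists by function. Over all genes tested, 11.3% were called in the averaged contrast of E6 against WT and 5.22% were higher in E6. In that contrast the number called in each list changed when single libraries were left out. Of the laminin receptors, 12 of 14 in the files were tested in the averaged contrast, 3 were higher in E6, none was lower, and the median log2 FC was 0.46. *Itga2*, the α subunit of a collagen and laminin integrin, had a mean of 1.96 CPM in WT and 9.99 CPM in E6, with a log2 FC of 2.35 (FDR 0.000570). *Itga6*, whose product pairs with integrin β4 in the receptor of hemidesmosomes, rose from a mean of 135 to 257 CPM, with a log2 FC of 0.91 (FDR 0.00122). *Mcam*, an adhesion molecule that binds laminin-411, had a log2 FC of 0.69 (FDR 0.0194), and this call was kept only without replicate 2 of WT after adhesion among the 8 fits that each left out a library. *Itgb1* (0.46) and *Itgb4* (0.46), which encode the β subunits of the laminin integrins, had FDRs of 0.0150 and 0.0348 but did not reach the FC limit, and *Dag1*, the dystroglycan receptor, had -0.22 (FDR 0.0951).

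Of the basement membrane partners of laminin, 15 of 25 in the files were tested, 5 were higher in E6 and 1 was lower, with a median of 0.31. *Col7a1*, the collagen of the anchoring fibrils that attach to the basement membrane, had a log2 FC of 0.99 (FDR 0.00376), *Tinagl1*, a matricellular protein, 0.95 (FDR 0.00911), and *Pxdn*, the peroxidase that crosslinks collagen IV, 0.82 (FDR 0.00120). The others were *Col4a3* (0.67), a collagen IV chain, and *Hspg2* (0.59), which encodes perlecan. *Tinagl1* was not called without replicate 1 or replicate 2 of WT before adhesion. *Hspg2* fell short without replicate 1 of WT before, of WT after or of E6 after adhesion, at 0.55, 0.55 and 0.56, with culture time as a covariate, at 0.56, and after GC correction, at 0.47. *Col18a1*, the collagen that gives rise to endostatin, was the gene that fell, by 0.68 on the log2 scale (FDR 0.0306). With each library left out in turn its log2 FC ranged from -0.84 to -0.42, the latter short of the FC limit. Its level was 406, 420, 212 and 416 CPM in WT and 210, 219.5, 241 and 239 CPM in E6, so that replicate 1 of WT after adhesion lay within the E6 range.

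Of the hemidesmosome and linker proteins, 12 of 13 were tested and 2 were higher, *Itga6*, which is also among the receptors, and *Fermt1*, which encodes kindlin-1, an activator of integrins, with a log2 FC of 1.14 (FDR 0.00249). All 13 enzymes that glycosylate dystroglycan for laminin binding were tested and none was called in the averaged contrast, with a median of 0.09, though *Tmem5* was lower in E6 after adhesion (-0.65, FDR 0.0222). None of the 6 tested laminin-processing proteases, out of 10 in the files, was called. In the averaged adhesion contrast no member of these 5 lists was called, where 1.89% of all genes tested were.

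The genes whose log2 CPM followed each chain most closely over the 8 libraries were ranked among 10286 genes outside the family by Pearson's r. They were *Whsc1* (0.997) and *Riok3* (0.996) for *Lama3*, *Syt8* and *Mau2* (both 0.994) for *Lama5*, *Tnc* (0.998) and *Camsap1* (0.994) for *Lamb1*, *Gtf2ird1* (0.996) and *Tmub1* (0.994) for *Lamb2*, *Fastk* (0.998) and *Aph1a* (0.997) for *Lamb3*, and *Dennd1a* (0.975) and *Ube2q2* (0.969) for *Lamc1*. *Tnc* encodes tenascin-C, a glycoprotein of the extracellular matrix. The 8 points share the split between the cell types and the library that stood apart, and the best match was picked from many genes, so these values are descriptions. Among the chains, *Lama3* and *Lamb1* had an r of 0.952 over the 8 libraries, and the pairs of *Lama5*, *Lamb2* and *Lamb3* had r from 0.908 to 0.979.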

How the data were processed

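RNA-Seq was done on 8 libraries, 2 per condition, grouped by the titles of the samples. The authors aligned paired-end reads to mm10 with STAR (version 2.5.0a in the submitters' processing notes) and counted them on genes with HTSeq. The deposited values are raw counts per gene, without normalization. The labels name the TruSeq Stranded mRNA kit and the methods of the study a TruSeq Stranded Total RNA kit, and the annotation and the strand setting of the counting are not given in the sources used here. *Lama3* shares 197 exon bases with the antisense gene *Gm29200*, so without the strand setting their reads may not be told apart. In replicate 1 of E6 before adhesion 18 symbols turned into dates were restored from the gene order. Rows that name no gene held 21.2% to 33.3% of each library's total and were left out.

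Depth was 13506610 to 20145154 counts per library, and floors of 3 counts cover counting error only. The 8 chains and all gene lists were chosen with earlier results on these data known. The genes named are the laminin symbols given here (another item that the rule covers is not reported here), for each list up to 3 called members with the largest averaged difference between the cell types and up to 2 in averaged adhesion, and the 2 most similar genes of each chain. *Col4a3*, *Hspg2*, *Col18a1*, *Itgb1*, *Itgb4*, *Dag1* and *Tmem5* were named after their values were seen. Genes were filtered by filterByExpr and scaled by TMM in edgeR 4.0.16 (R 4.3.3), and the quasi-likelihood fit covered all 8 libraries, with 1 mean for each condition. Genes were called at an FDR (Benjamini-Hochberg, over 11672 genes) under 0.05 and an FC of at least 1.5. Standard errors and intervals were derived from the F statistic. Log2 CPM used a prior count of 2. RPKM used gene lengths from GENCODE vM21, which matched 22740 symbols directly and 933 through older names, with 379 unmatched. Alternatives were RLE size factors, DESeq2 1.42.0, no filter on low counts, no FC limit, the replicate number as a block, fits of the compared libraries alone or of all but 1 library, culture time as a covariate and a GC correction by lowess (span 0.3, limma 3.58.1). Promoters came from a RefSeq table that held 5 of the 10 laminin symbols given here. Tables and figures were made in Python 3.11.15 (pandas 2.3.3, numpy 2.4.6, matplotlib 3.10.9).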

Additional observations from a re-analysis of the deposited data

Results flagged for a closer look

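In the 4 WT libraries, the *Lamb2* level of replicate 1 after adhesion, at 47.2 CPM, stood far from the other 3, at 96.7 to 104 CPM. Its gap to the nearest library was 0.874 of the whole range, above Dixon's 95% critical value for 4 samples. The test was made on 12 groups of 4 libraries, for 6 chains in each cell type, and chance alone marks about 1 group in 20. The same library was the lowest for *Lama5* and *Lamb3*, whose gaps did not pass that value. The GC values given for this library in the report stand beside this result. The log2 FC of adhesion in WT for *Lamb2* was -0.49 before and -0.38 after GC correction, uncalled in both.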

How the results depend on the processing

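Of the 360 log2 FC of chains under another setting that kept all libraries or only those compared, 352 kept their direction and their side of the threshold, 2 lost the call and 6 changed sign, none of the 6 called. The calls lost were those of *Lama3* and *Lamb1* after adhesion when only the libraries compared were fitted (0 of the 8 chains called, instead of 2, and 0 genes in all). The cause was not tested. The sign changes were 0.0012 for *Lamc1* before adhesion with culture time as a covariate, 0.0162 for *Lamc1* in WT adhesion with the same covariate, 0.0483 (*Lamb1*) and 0.0836 (*Lamc1*) in WT adhesion with GC correction, and 0.0491 and 0.0756 for the same values with GC correction and the replicate block. The *Lama5* and *Lamb3* shares of their class, averaged over all 8 libraries, moved by less than 1 SD over those libraries with the longest transcript or without any 1 library. Within E6 the *Lamb3* share moved from 60.5% ± 0.848 to 58.9% ± 0.818 with the longest transcript (SD, n = 4), by more than 1 SD.

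With the replicate number as a block, no call of a chain changed in any contrast, and *Lama3* kept a log2 FC of 0.92 in the averaged contrast. The deviations of same-numbered libraries had correlations from -0.079 to 0.222 between conditions over 9768 genes, the highest between WT before and WT after adhesion. Culture time differed among same-numbered libraries, so these values cannot decide whether the numbers pair them. Over all genes the block gave 383 calls instead of 585 before adhesion, 132 instead of 234 for adhesion in E6 and 139 instead of 221 averaged. With all libraries or only those compared, the other counts over all genes that moved by more than 1.5 times were 2444 without the FC limit in the averaged contrast of the cell types, 1457 and 345 before adhesion and 537 and 142 for adhesion in E6, in each case with only the libraries compared and with culture time as a covariate, 907 before adhesion with GC correction, and 337 and 124 for averaged adhesion with DESeq2 and with culture time. Leaving out each library in turn moved these counts further. They ranged from 671 to 2557 in the averaged contrast of the cell types, from 37 to 1512 before and 27 to 4500 after adhesion, from 0 to 643 for adhesion in E6 and from 39 to 1341 for averaged adhesion, and each of the 8 fits moved them by more than 1.5 times, except the averaged contrast of the cell types without replicate 1 of WT after adhesion (1572). The highest of these came without replicate 2 of WT after adhesion, except for adhesion in E6, where it came without replicate 1.

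Leaving out each library in turn gave 2 to 4 of the 8 chains called in the averaged contrast of the cell types, 0 to 2 before adhesion, 0 to 5 after adhesion, 0 to 3 for adhesion in WT, 0 to 1 for averaged adhesion and 0 to 3 for the difference of the adhesion effects. The counts of 3 or more, and the 1 for averaged adhesion, came without replicate 2 of WT after adhesion. Of 336 log2 FC of chains in these fits, 297 were the same, 14 lost and 12 gained the call and 13 changed sign. Where a sign changed, the ranges were -0.19 to 0.0198 for *Lamc1* after adhesion. For adhesion in WT they were -0.10 to 0.0492 (*Lamb1*), -0.88 to 0.12 (*Lamb3*) and -0.13 to 0.0732 (*Lamc1*), and for adhesion in E6 -0.15 to 0.0426 (*Lama5*). For averaged adhesion it was -0.48 to 0.0244 (*Lamb3*). For the difference they were -0.16 to 0.0747 (*Lama3*), -0.13 to 0.0181 (*Lamb1*), -0.19 to 0.80 (*Lamb3*) and -0.16 to 0.0503 (*Lamc1*).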

Other observations

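The genes near *Lama3* were looked at after its values were seen. In the averaged contrast of E6 against WT, 11.3% of all genes tested were called. Of the 10 tested within 2 Mb of *Lama3*, 1 was called, *Npc1*, with a log2 FC of 0.60. The next on that side were *3110002H16Rik* (0.54) and *Riok3* (0.53), which were below the FC limit, while on the other side *Ttc39c* had 0.03 and *Osbpl1a* 0.28. The median of the 10 neighbours was 0.08, against 0.92 for *Lama3* itself. Around *Lamb1* the median of 16 neighbours was -0.09, with 1 higher and 1 lower, against 0.74 for the chain.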
